A study of Mus musculus with 8 samples.

Results

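The expression of 10 genes of antigen presentation was examined in RNA-Seq data from E14.5 mouse fetal ovaries with and without *Bmpr1a* in the germ cells. The genes were taken by symbol from the 25239 genes of the count files. They are the class I heavy chains *H2-K1* and *H2-D1*, their light chain *B2m*, the loading factors *Tap1*, *Tap2* and *Tapbp*, the class II chains *H2-Aa*, *H2-Ab1* and *H2-Eb1*, and the invariant chain *Cd74*. They were selected on measured values, as MHC genes after *H2-K1*, *H2-D1* and *H2-Ab1* had been seen to have lower normalized counts in mutant ovaries. The differences between the genotypes are therefore a description for all 10 genes, given without p-values. Counts of members past the thresholds and intervals of counting error are printed beside them and support nothing. Ovaries of *Bmpr1a*-cKO embryos (Bmpr1a fl/fl; Oct4-Cre Cre/WT), the mutants here, were compared with those of control littermates (Bmpr1a fl/fl, without Cre), all female and on a C57BL/6 background. The floxed line had come with some 129SV background and had been backcrossed. All embryos of both genotypes had been exposed in utero to 1 mg of 4-hydroxytamoxifen and 0.5 mg of progesterone, given to the dam on days 9.5, 10.5 and 11.5 of gestation. Whole ovaries from 8 embryos of each genotype, from 6 litters in all, made 4 libraries per genotype with 2 ovary pairs in each. Cre is driven by *Oct4*, so the floxed exon is removed in germ cells while the somatic cells of the ovary keep it, and no group carried Cre without the floxed alleles. An effect of the deletion and one of carrying the Oct4-Cre allele cannot be told apart in this design.

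MHC class I molecules carry peptides made inside the cell to its surface. The heavy chain is stable there only together with B2m and a peptide, which the transporter of TAP1 and TAP2 brings into the endoplasmic reticulum and which tapasin, the product of *Tapbp*, helps to load. MHC class II molecules are pairs of an alpha and a beta chain, held by the invariant chain until they reach the endosome, and are known mainly from dendritic cells, macrophages and B cells. In C57BL/6 mice the pair is made of H2-Aa and H2-Ab1, as the alpha chain that would join H2-Eb1 is not made. Most somatic cells carry class I molecules, and fetal tissues are known for low amounts of both classes.

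The sequences before the start sites of the class I genes are shown because they are alike in the 2 heavy chains and differ from that of *B2m*. That of *H2-Aa* is shown beside them. Genes of the MHC arise by duplication, so their windows can be alike whatever their levels. The windows were picked with the levels known, and a link between window and level was not tested. Each sequence is the 250 bases that end just before a RefSeq start site (GRCm38.p6, the assembly of mm10), 5′ to 3′ on the strand of the gene. The window of *H2-K1* is chr17:34000334-34000583 on the minus strand and lies before the more downstream of its 2 start sites. The window of *H2-D1* is chr17:35262844-35263093 on the plus strand, that of *B2m* is chr2:122147437-122147686 on the plus strand, and that of *H2-Aa* is chr17:34287824-34288073 on the minus strand. The gene positions given below are from GENCODE vM21, where *H2-D1* starts earlier, at 35262730. The window of *H2-D1* therefore lies inside that gene span. Capitals mark every match, on either strand, to the NF-kB palindrome (the capital run nearest the 5′ end of *H2-K1* and of *H2-D1*), to the core of the interferon-stimulated response element TTTCNNTT, and to the inverted CCAAT box ATTGG, and none of these matches overlapped another.
H2-K1: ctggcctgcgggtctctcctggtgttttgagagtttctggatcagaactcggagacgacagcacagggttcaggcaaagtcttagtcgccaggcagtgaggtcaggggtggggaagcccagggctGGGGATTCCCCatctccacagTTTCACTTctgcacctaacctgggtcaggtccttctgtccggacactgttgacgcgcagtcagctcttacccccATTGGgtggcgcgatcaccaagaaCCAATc
H2-D1: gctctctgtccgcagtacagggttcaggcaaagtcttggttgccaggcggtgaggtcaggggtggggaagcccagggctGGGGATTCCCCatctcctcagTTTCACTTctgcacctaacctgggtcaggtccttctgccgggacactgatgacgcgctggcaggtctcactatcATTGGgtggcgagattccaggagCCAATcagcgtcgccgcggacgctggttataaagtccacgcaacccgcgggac
B2m: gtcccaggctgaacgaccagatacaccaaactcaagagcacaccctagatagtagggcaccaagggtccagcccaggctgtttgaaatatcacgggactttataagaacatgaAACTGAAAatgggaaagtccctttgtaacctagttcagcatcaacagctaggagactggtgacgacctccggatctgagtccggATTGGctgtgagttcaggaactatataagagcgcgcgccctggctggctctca
H2-Aa: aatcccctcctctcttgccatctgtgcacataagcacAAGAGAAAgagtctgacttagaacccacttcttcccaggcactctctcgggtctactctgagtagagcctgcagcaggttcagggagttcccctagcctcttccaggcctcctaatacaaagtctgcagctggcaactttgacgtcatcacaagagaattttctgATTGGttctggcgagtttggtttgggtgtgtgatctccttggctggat

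The NF-kB palindrome was in the window of *H2-K1*, starting 125 bases before the start site, and in that of *H2-D1*, starting 171 bases before it. In both genes the interferon core followed after 10 bases, with the same letters. Over all RefSeq start sites, the palindrome was in 10 of 32851 windows (0.0304%), which belonged to 9 genes. These include both start sites of *H2-K1*, and *H2-D1* and *H2-Q6* as related class I genes, so the windows are not independent. The interferon core was in 21.3% and the CCAAT box in 33.8% of the windows. *B2m* and *H2-Aa* held the interferon core and the CCAAT box without the palindrome. Only exact matches to the palindrome were searched for, so other forms of the NF-kB site were not assessed, in *B2m* or elsewhere. The GC-rich SMAD site GGCGCC, in 9.59% of all windows, was found before *Tap1* and before none of the other 6 members with a window. The windows of 7 of the 10 members were in the table used here. Those of *H2-Ab1*, *Tap2* and *Cd74* were not analysed here. A match is a description of the letters and not a site in use.

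The depth was 8562961 to 15365052 counts per library, and 14249 genes passed the filter on low counts and were tested with edgeR. Levels are in CPM on TMM-scaled library sizes. The deleted gene, *Bmpr1a*, was counted at 199, 236, 220.2 and 215 CPM in control libraries 1 to 4 and at 185, 194, 190 and 209 CPM in mutant libraries 1 to 4. These values do not check the labels, since counts are per gene and somatic cells keep the exon. Of the 10 members, 7 passed the filter, and *H2-Aa*, *H2-Eb1* and *Cd74* did not. At an absolute Log2FC over 0.5 and an FDR below 0.05, 3 of the 7 were called lower and 0 higher. Over all genes tested, 4.06% were called lower, 6.11% higher and 10.2% in either direction, and 29.8% had an FDR below 0.05 at any fold. All mutant libraries were below all controls for 3 of the 10 members and above them for 1, against 11.7% and 16.1% of the genes tested. The choice of members used this contrast, so nothing is read from their share.

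*H2-K1* encodes a classical class I heavy chain and lies on chromosome 17 from 33996017 to 34000347 (mm10). Controls 1 to 4 had 47.9, 33.0, 49.9 and 54.5 CPM, and mutants 1 to 4 had 8.22, 10.7, 15.1 and 19.8 CPM. The genotypes did not overlap, with control library 2 lowest among controls and mutant library 4 highest among mutants. The means were 46.3 ± 9.31 and 13.4 ± 5.08 CPM (SD, n = 4 each), a Log2FC of -1.76 with a standard error of 0.20. In whole ovaries, fewer cells of a type and less RNA per cell cannot be told apart.

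*H2-D1*, the other classical heavy chain of this strain, lies on the same chromosome from 35262730 to 35267499. Its levels were 8.21, 5.31, 7.48 and 8.45 CPM in control and 2.62, 2.45, 3.35 and 3.34 CPM in mutants. The genotypes did not overlap, and control library 2 was again the lowest control. The Log2FC was -1.33 with a standard error of 0.18, which is 2.51-fold lower in the mutant, against 3.38-fold lower for *H2-K1*.

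*B2m*, on chromosome 2 from 122147686 to 122153083, encodes the light chain that both heavy chains need. It had 26.1, 29.5, 26.1 and 28.9 CPM in control and 26.2, 23, 27.3 and 31.3 CPM in mutants. The genotypes overlapped, and the lowest and the highest library were both mutant. The Log2FC was -0.035 with a standard error of 0.094. Per exon length and within each library, *H2-K1* stood at 0.327 to 0.559 of the level of *B2m* in control and at 0.0918 to 0.185 of it in mutants. The same ratio of *H2-D1* to *B2m* was 0.0599 to 0.105 in control and 0.0333 to 0.0409 in mutants. Since the heavy chains were chosen for lower values in the mutant, a lower ratio to *B2m* was fixed by that choice. The ratio of *H2-K1* to *H2-D1* was 5.12 to 5.85 in control and 2.75 to 5.20 in mutant libraries and did overlap.

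**Figure D1:**
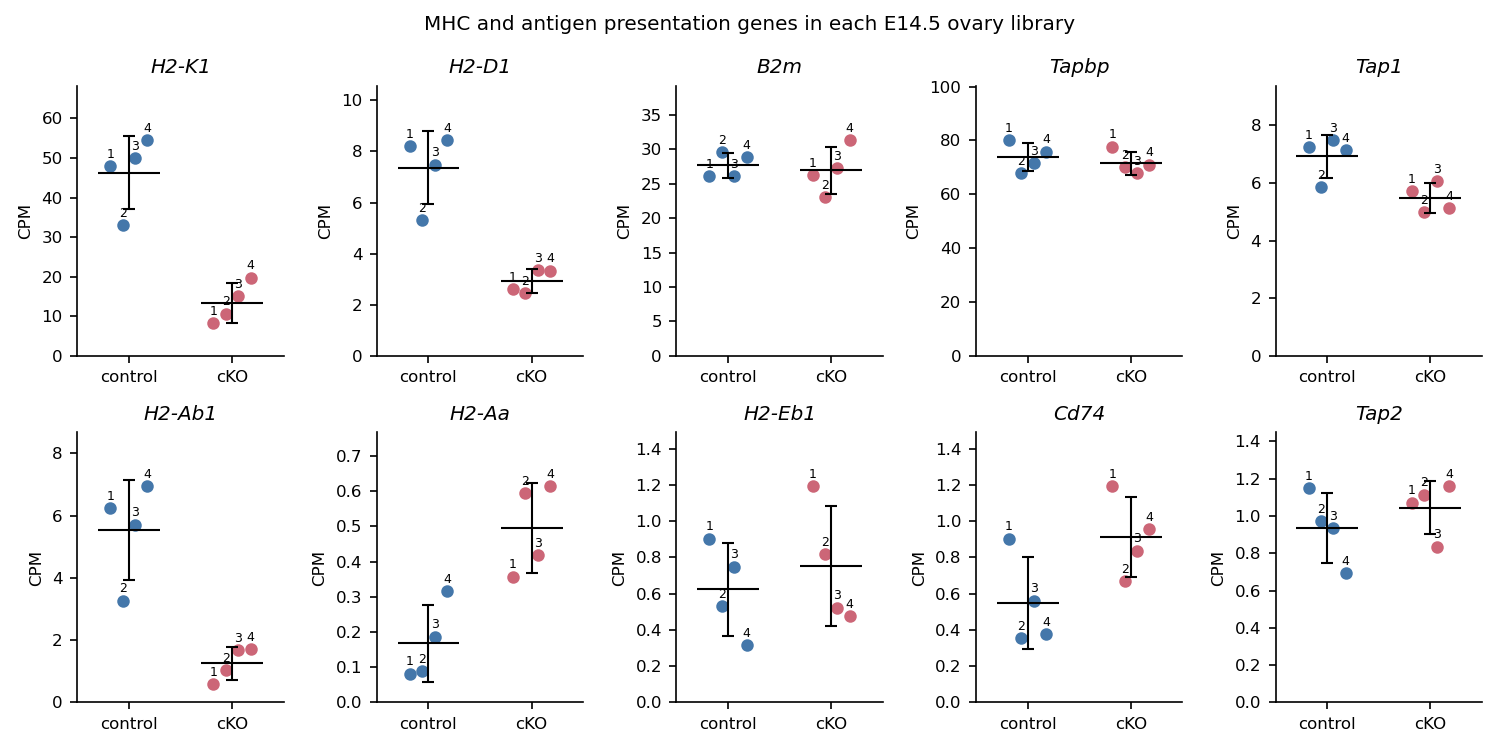
Level of each of the 10 members in CPM (vertical axis, from 0) in the 4 control (blue) and 4 cKO (red) libraries, numbered as labelled, with the mean and its SD. *H2-K1*, *H2-D1* and *H2-Ab1* show no overlap between the genotypes and lie lower in cKO, *H2-Aa* lies higher in cKO at 0.357 to 0.613 CPM, and the other 6 genes overlap.

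The loading factors lie between the heavy chains on chromosome 17, apart from *Tapbp*, which lies just outside *H2-K1*. *Tapbp* had 67.9 to 80.2 CPM in control and 67.8 to 77.6 CPM in mutants, a Log2FC of -0.048 with a standard error of 0.068. *Tap1* had 7.23, 5.84, 7.48 and 7.12 CPM in control and 5.72, 4.98, 6.06 and 5.11 CPM in mutants. Only control library 2 reached into the range of the mutants, and the Log2FC of -0.35 (standard error 0.14) was short of the threshold of 0.5. *Tap2*, with 8 to 17 counts per library, had 0.938 ± 0.188 CPM in control and 1.05 ± 0.144 CPM in the mutant (SD, n = 4 each) and overlapped. *Tap1* and *Psmb9* share 212 exon bases on opposite strands, *Tapbp* shares 149 exon bases with *Zbtb22* on its own strand and 904 with *Gm19412* on the other, and *Tap2* shares 533 with *Gm15821* on the other. Whether reads were counted by strand is not given in the sources used here, so these values are less certain.

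*H2-Ab1*, the class II beta chain, lies on chromosome 17 from 34257689 to 34269419. Controls 1 to 4 had 6.24, 3.27, 5.71 and 6.93 CPM, from 37 to 110 counts, and mutants 1 to 4 had 0.595, 1.04, 1.67 and 1.70 CPM, from 5 to 25 counts. The genotypes did not overlap, and as for *H2-K1* control library 2 and mutant library 1 were the lowest and library 4 the highest of their genotypes. The Log2FC was -2.11 with a standard error of 0.29, 4.30-fold lower in the mutant and the largest difference among the 7 members tested.

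Its partner chain *H2-Aa*, on the same chromosome from 34282744 to 34287823, was near the limit of the depth. It had 1, 1, 2 and 5 counts in the control and 3, 8, 4 and 9 counts in the mutants, where a count of 0 would still allow up to 3 counts, or 0.189 to 0.357 CPM by library. In CPM every mutant library was above every control library. Summed over the libraries, the 9 counts in control and 24 in mutants gave a ratio of 2.89, with a 95% exact binomial interval of 1.30 to 7.08 that covers counting error only. *H2-Eb1* had 5 to 11 counts per library in either genotype, 30 and 33 in all, a ratio of 1.19 (interval 0.706 to 2.03). *Cd74*, the invariant chain, had 4 to 11 counts in control and 8 to 14 in mutants, 27 and 41 in all, a ratio of 1.65 (interval 0.990 to 2.79). The genotypes overlapped for *H2-Eb1* and *Cd74*. None of these 3 class II genes was lower in the mutant, in contrast to *H2-Ab1*.

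Per exon length, *H2-Ab1* exceeded *H2-Aa* by 32.5 to 112 times in control and by 2.46 to 5.92 times in mutants. Against *Cd74*, *H2-Ab1* stood at 4.52 to 12 in control and at 0.327 to 1.31 in mutants. Against *H2-Eb1* it stood at 4.67 to 16.7 and at 0.379 to 2.7. *H2-Ab1* was chosen for lower values in the mutant, which fixed the direction of these ratios. They are imprecise, as *H2-Aa* was at 1 to 5 counts per control library.

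**Figure D2:**
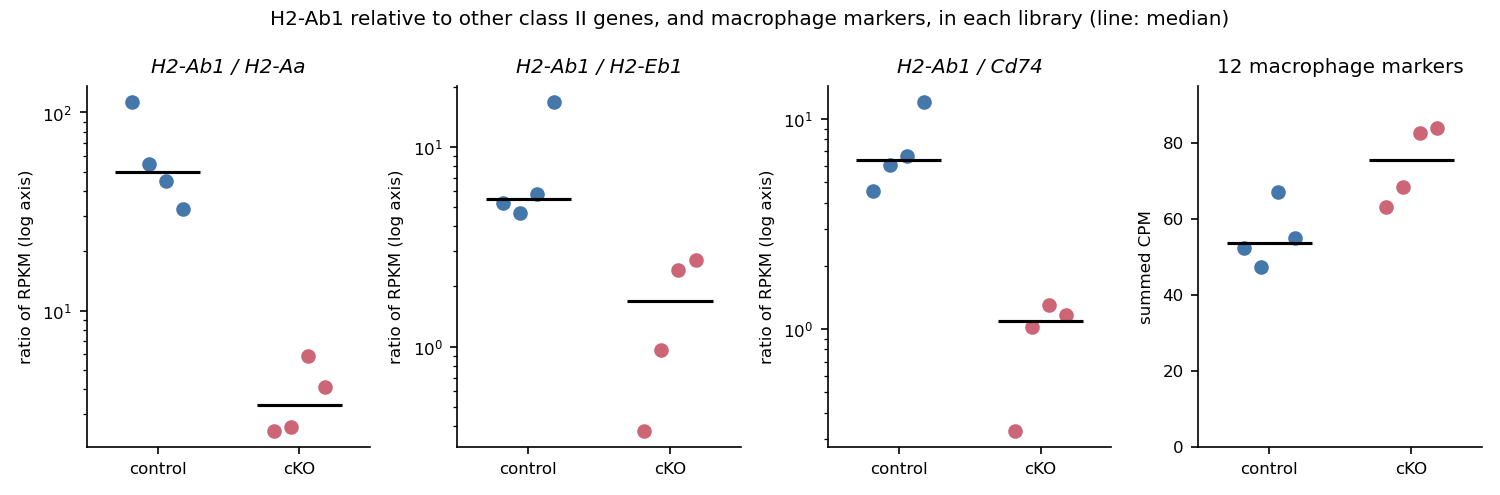
Ratio of RPKM of *H2-Ab1* to *H2-Aa*, *H2-Eb1* and *Cd74* in each library (log axes), and summed CPM of 12 macrophage markers (axis from 0). Points are the 4 control (blue) and 4 cKO (red) libraries and lines their medians. The 3 ratios lie lower in cKO, a direction fixed by the choice of *H2-Ab1*, and rest on 1 to 14 counts of the other genes per library, while the macrophage sum is 47.5 to 67.3 CPM in control and 63.2 to 83.9 CPM in cKO.

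Levels were compared between the genes as RPKM over the union of annotated exons, which is not the contrast that the members were chosen on. The mutant values of *H2-K1*, *H2-D1* and *H2-Ab1* that led to the choice still enter the means and the test. Ranks and p-values of pairs that hold these genes are therefore not independent of the choice. *B2m* was highest at 31.8 RPKM over the 8 libraries (range 26.8 to 36.5), followed by *Tapbp* at 20 (18.7 to 22.1) and *H2-K1* at 10.2 (2.80 to 18.6). *H2-D1* had 2.0, *H2-Ab1* 1.32, *Tap1* 1.13, *Cd74* 0.435, *H2-Eb1* 0.354, *Tap2* 0.262 and *H2-Aa* 0.0874 RPKM. Each gene was compared with the next in this order by an exact permutation test of sign flips within the 8 libraries (two-sided, adjusted over 9 pairs by the Benjamini-Hochberg method). In 6 of the 9 pairs the former gene was higher in 8 of 8 libraries, with an adjusted p of 0.0117 each (unadjusted 0.00781, the smallest that 8 libraries allow). *H2-K1* was above *H2-D1* by 4.60-fold. Neighbours that did not differ beyond their spread were *H2-Ab1* and *Tap1* (ratio 0.863, higher in 4 of 8 libraries, exact adjusted p = 0.617), *Cd74* and *H2-Eb1* (ratio 1.23, higher in 5 of 8, exact adjusted p = 0.202), and *H2-Eb1* and *Tap2* (ratio 1.27, higher in 6 of 8, exact adjusted p = 0.10). The first of these pairs was reversed by genotype, as *H2-Ab1* was above *Tap1* in each of the 4 controls (means of 2.16 and 1.26 RPKM) and below it in each of the 4 mutants (0.488 and 0.998 RPKM). The mean levels of the controls alone kept the order given. In those of the mutants alone, *Tap1* and *Cd74* (0.543 RPKM) came before *H2-Ab1*, and the other genes kept their order. With the longest transcript as the length, *H2-Ab1* came before *H2-D1*, and 4 pairs differed.

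**Figure D3:**
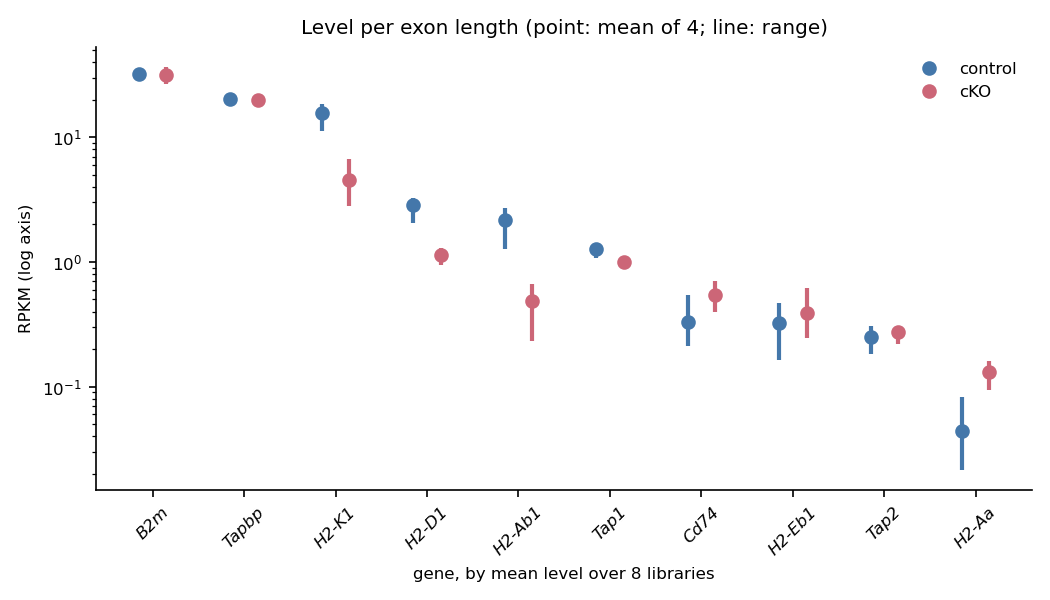
RPKM of the 10 members (log axis) in order of their mean over 8 libraries; points are the means and lines the ranges of the 4 control (blue) and 4 cKO (red) libraries. *B2m* is highest at 26.8 to 36.5 RPKM and *H2-Aa* lowest at 0.0216 to 0.161 RPKM.

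Genes of the MHC arise by duplication, and reads of near-identical copies can be lost or divided in counting. Of the 150-base windows of the annotated transcripts, none of *H2-K1* or *H2-Ab1* occurred in a transcript of another gene, and 1.35% of those of *H2-D1* occurred in *H2-Q1*. *H2-Q1* was counted at under 0.2 CPM in every library. The share was 1.04% for *Tap1* (with *Psmb9*), 0.565% for *Tap2* (with *Gm15821*) and 10.1% for *Tapbp* (with *Gm19412*).

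The pathway was followed in 73 other genes, of which 71 were in the files and 41 were tested. By edgeR, 1 was called lower and 3 were called higher, 4 of 41 against 10.2% of all genes tested, and their median Log2FC was 0.04 against -0.0042 over all genes. Among 22 other class I heavy chains, 4 were tested and none was called. *H2-Q4* had 3.65 to 5.48 CPM in control and 3.97 to 4.88 CPM in mutants (Log2FC of 0.04, FDR = 0.886 by edgeR). *H2-T23*, the mouse Qa-1 chain that presents to receptors of natural killer cells, had 1.22 ± 0.569 and 0.871 ± 0.383 CPM (SD, n = 4 each) with a Log2FC of -0.55 and an FDR of 0.296 by edgeR. *H2-Q6* was not tested and is named after its values were seen, as it shares the palindrome and the interferon core with *H2-K1* and *H2-D1*. It had 6, 2, 7 and 18 counts in the control and 1, 2, 0 and 3 counts in the mutants. *Meig1* and *Aipl1* hold both as well, with means of 0.0363 and 0.0837 CPM in control and 0.108 and 0.365 CPM in the mutant. *Tfap2d*, with the palindrome only, had 0.0234 and 0 CPM. None of these was tested, and they were near the limit of the depth. *H2-Q2*, another class I chain not tested, had 7, 4, 3 and 5 counts in the control and 1, 17, 15 and 23 in the mutants. The other genes with the palindrome that were tested were *Zfp385b* (Log2FC of -0.59, FDR = 0.00032 by edgeR), *Atg16l2* (0.12, FDR = 0.584) and *Pdzd2* (-0.19, FDR = 0.0796).

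Genes that supply and load class I peptides included the chaperones *Calr*, *Canx* and *Pdia3* and the proteasome activator *Psme1*. Of 12 listed, 10 were tested and 0 were called, with a Log2FC of -0.34 to 0.20. Their median was 0.12. *Psmb8* and *Psmb9*, subunits of the immunoproteasome, were at 1 to 10 and 5 to 18 counts per library and were not tested. Among 5 class I-like chains tested, 0 were called. These were *Cd1d1*, *Mr1*, *Fcgrt*, *Hfe* and *Mill2*, with a Log2FC of -0.32 to 0.02.

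Among the class II genes, 7 of 12 in the files were tested. *H2-Oa*, a chain of the H2-O molecule that restrains class II peptide exchange, fell from 1.69 ± 0.321 to 1.01 ± 0.131 CPM (SD, n = 4 each; Log2FC of -0.72, FDR = 0.0395 by edgeR). This call was lost in 12 of 18 alternatives (FDR up to 0.242 by edgeR), among them leaving out any library but control library 2, with FDRs of 0.0598 to 0.103 by edgeR, and the replicate number as a block (FDR = 0.0524 by edgeR). *H2-DMa*, which exchanges class II peptides, had 2.7 ± 0.619 CPM in control and 3.85 ± 0.735 CPM in the mutant (Log2FC of 0.48, FDR = 0.101 by edgeR). The endosomal proteases *Lgmn* and *Ctss* had a Log2FC of 0.44 (FDR = 0.000149 by edgeR, below the fold threshold) and 0.70 (FDR = 0.0762). *Ifi30*, a thiol reductase of the same compartment, had one of 0.29 (FDR = 0.0190).

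Of the regulators, 15 of 17 were tested, and 3 were called higher and 0 lower. With an FDR below 0.05 at any fold, 5 were higher and 1 lower. The lower one was *Rfxap*, with 16.3 ± 1.28 CPM in control and 12.6 ± 0.760 CPM in the mutant (SD, n = 4 each). Its Log2FC was -0.37 (FDR = 0.00836 by edgeR, below the fold threshold), and its mutants lay wholly below the controls. *Irf1*, an interferon-induced activator of class I genes, rose from 18.7 ± 3.06 to 31.4 ± 1.86 CPM (SD, n = 4 each; Log2FC of 0.76, FDR = 5.46e-05 by edgeR). *Nfyb*, a subunit of the factor that binds CCAAT boxes, rose from 27.7 ± 4.17 to 43.3 ± 2.5 CPM (Log2FC of 0.65, FDR = 0.000101 by edgeR). For both, the mutants lay wholly above the controls, and both were called in each of 18 alternatives. *Irf8* was called higher (Log2FC of 0.57, FDR = 0.0324 by edgeR), but not without mutant library 2 or 4 or control library 1 or 4 (FDRs of 0.133, 0.0791, 0.0776 and 0.108 by edgeR). Its call was also lost with DESeq2 (FDR = 0.0775 by DESeq2) and with scaling to germ cell markers (FDR = 0.215 by edgeR). *Ciita*, the master regulator of class II genes, had 0 to 3 counts in every library, and *Nlrc5*, its counterpart for class I genes, had 7 to 16. Neither was tested. On the opposite strand, *Irf1* shares 135 exon bases with *Gm17334*, *H2-Oa* 321 with *BC051537* and *H2-DMa* 360 with *Brd2*.

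**Figure D4:**
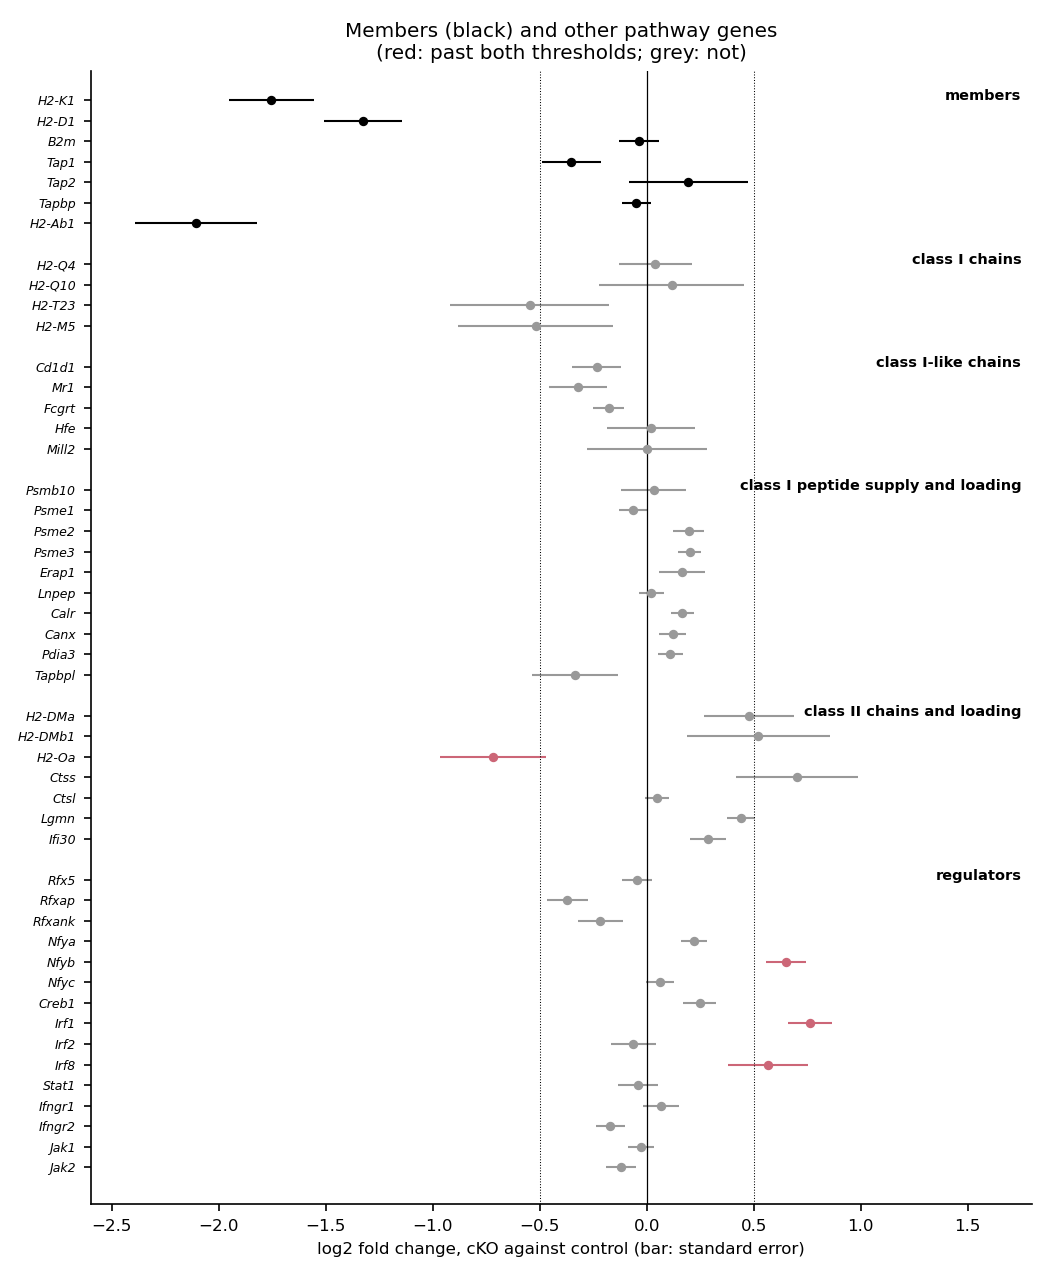
Log2FC of cKO against control (horizontal axis, bar: standard error of the edgeR fit) for the 7 members tested (black, given with no test) and 41 other pathway genes by role (red: past both thresholds; grey: not). Dotted lines mark an absolute Log2FC of 0.5. *H2-K1*, *H2-D1* and *H2-Ab1* lie between -2.11 and -1.33, and every other gene shown lies between -0.72 and 0.76.

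Of 24 interferon-stimulated genes, 16 were tested, 0 were called lower and 1 was called higher, and their median Log2FC was -0.0068. The gene called was *Oasl2*, with 5.11 ± 0.458 CPM in control and 9.46 ± 1.87 CPM in the mutant (SD, n = 4 each; FDR = 0.000489 by edgeR).

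Markers of cells that carry class II molecules were looked at beside the members. The 12 macrophage markers summed to 52.5, 47.5, 67.3 and 55.1 CPM in control and to 63.2, 68.6, 82.6 and 83.9 CPM in mutants. Of the 10 tested, 4 were called higher (*Adgre1*, *C1qa*, *C1qb* and *C1qc*, with a Log2FC of 0.78, 0.69, 0.70 and 0.89) and 0 lower, and each of the 12 had a count in at least 1 library. *C1qb* was not called without control library 2 (Log2FC of 0.49), nor *C1qa* without control library 1 (FDR = 0.0702 by edgeR). *C1qa* was also not called with scaling to germ cell markers (FDR = 0.0718 by edgeR). Without control library 4 or mutant library 3 or 4, only 2 markers were called, with FDRs for *C1qa* of 0.0756, 0.0915 and 0.108 by edgeR. The dendritic cell list summed to 47.3 to 55.1 CPM in control and 44.9 to 51.4 CPM in mutants, nearly all of it from *Zbtb46*, and its defining markers *Itgax*, *Flt3* and *Xcr1* were at 0 to 0.371 CPM with *Cd209a* at 0 in all libraries. The B cell list summed to 0.883 to 2.66 CPM over all libraries. The T cell list summed to 3.34 to 3.80 CPM in controls and 4.05 to 5.33 CPM in mutants. Nearly all of the T cell sum came from *Lck* (3.21 to 3.71 and 4.05 to 5.23 CPM), which was not called. Every other marker of that list had 0 to 3 counts per library.

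Lists for the other cells of the ovary gave 2 called lower (*Mael* and *Tdrd9*) and 1 higher (*Dppa4*) of 6 germ cell markers, and 1 called lower (*Foxl2*) of 6 pregranulosa markers, of which 5 had an FDR below 0.05 and all 6 a negative Log2FC. The mesonephric markers summed to 128 to 159 CPM in controls and 100.3 to 121 CPM in mutants. Most of this sum came from 1 gene, *Emx2*, with 119 ± 13.8 and 99.0 ± 6.93 CPM (SD, n = 4 each). The genotypes overlapped for *Pax2*, *Pax8* and *Cdh16*. The summed pregranulosa markers were 1337 to 1586 CPM in control and 1138 to 1369 CPM in mutants. The endothelial, stromal, mesonephric and erythroid lists held 0 called of 8, 5, 4 and 2 tested. The summed germ cell markers were 316, 346, 424 and 327 CPM in control libraries 1 to 4 and 263, 351, 368 and 394 CPM in mutant libraries 1 to 4. Among the mutant libraries *H2-K1* and *H2-Ab1* stood in the same order as this sum, with library 1 lowest and library 4 highest. The summed macrophage markers stood in that order too (63.2, 68.6, 82.6 and 83.9 CPM), so the order is not particular to the germ cell list. It was seen after the fact and was not tested. For *H2-Ab1* libraries 3 and 4 were close (1.67 and 1.70 CPM). For *H2-D1*, from 22 to 49 counts, libraries 1 and 2 (2.62 and 2.45 CPM) and libraries 3 and 4 (3.35 and 3.34 CPM) were too close to be ordered. Among the controls the library with the largest sum, library 3, was below library 4 for *H2-K1* and below libraries 1 and 4 for *H2-Ab1*. The part of germ cell, pregranulosa and macrophage content in the differences of the members was not tested.

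The MHC of the mouse lies beside *Pou5f1* (*Oct4*), the gene whose regulatory sequence drives Cre in the mutants, and 8 of the 10 members lie on chromosome 17 within 2 Mb of its start. *H2-D1* starts 0.243 Mb, *H2-Ab1* 1.2 Mb and *H2-K1* 1.51 Mb from it, and *Tap2*, *Tap1* and *Tapbp* start 1.30, 1.32 and 1.59 Mb from it. No coordinate of the Oct4-Cre allele is given in the sources used here. The study typed it against a wild-type allele with a shared forward primer named for *Pou*. If the allele lies at *Pou5f1*, the mutants carry it beside the MHC, and an effect of the deletion and one of the surrounding stretch of chromosome 17 cannot be told apart. Of 112 genes tested within this distance, 10 were called lower and 5 higher (13.4%), and without the members and pathway genes 6 were called lower and 5 higher of 99 (11.1%). The share was 10.9% over all 682 genes tested on chromosome 17 and 10.2% over all genes. The median Log2FC within the 2 Mb was -0.010.

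In bins of distance from *Pou5f1*, 12.5% of genes were called under 0.5 Mb, 14.8% from 0.5 to 1 Mb and 13.3% from 1 to 2 Mb. Farther out, the share was 17.5% from 2 to 5 Mb, 7.89% from 5 to 10 Mb and 10.3% beyond. The bins under 0.5 Mb (*H2-D1*) and from 1 to 2 Mb (*H2-K1* and *H2-Ab1*) include called members. The shares of these bins, and of all genes within 2 Mb, are therefore not independent of the choice. Apart from the members and *H2-Oa*, the genes with the largest changes there were *Gm10499* (Log2FC of 2.33), *BC051142* (-1.65), *Msh5*, which acts in meiotic crossover formation (-1.22), and *Rpp21*, a subunit of ribonuclease P (-0.79), with FDRs of 0.000216, 0.00305, 0.000147 and 0.000123 by edgeR. *BC051142* starts 1.11 Mb from *Pou5f1*, on the side of the class II genes, and went from 5.03 ± 1.73 to 1.52 ± 1.02 CPM (SD, n = 4 each), with control library 2 at 2.56 CPM and mutant library 4 at 2.73 CPM. *Pou5f1* itself had 43.3 ± 15.3 and 63.7 ± 7.47 CPM (SD, n = 4 each) with a Log2FC of 0.58 (FDR = 0.0235 by edgeR). Its FDR was 0.0589 to 0.0662 by edgeR without any of 5 single libraries (control library 1 or 4 and mutant library 2, 3 or 4). With DESeq2 its call was lost as well (FDR = 0.116 by DESeq2).

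**Figure D5:**
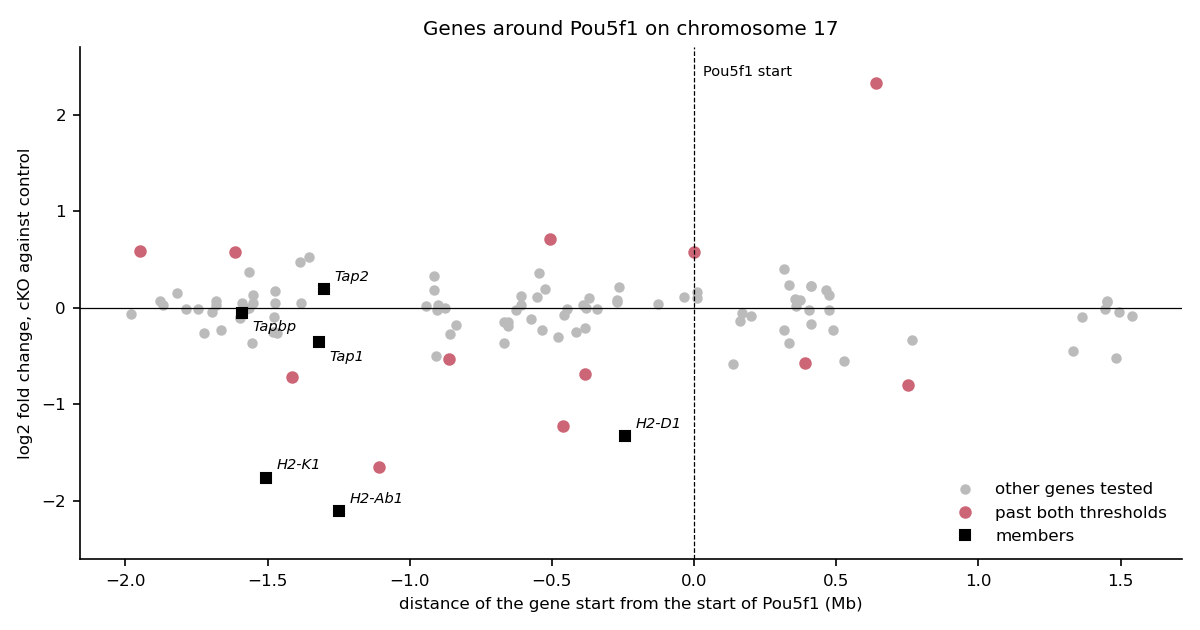
Log2FC of cKO against control (vertical axis) by distance in Mb of each gene's start from the start of *Pou5f1* on chromosome 17, for the 112 genes tested within 2 Mb (black squares: members; red: other genes past both thresholds; grey: the rest). *H2-K1*, *H2-D1* and *H2-Ab1* lie between -2.11 and -1.33. Of the other genes shown, the largest changes are those of *Gm10499* (2.33), *BC051142* (-1.65), *Msh5* (-1.22), *Rpp21* (-0.79) and *H2-Oa* (-0.72). With the members counted, 10 genes past both thresholds lie lower and 5 higher. *Tap1*, *Tap2* and *Tapbp* lie at -0.35, 0.19 and -0.048.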

How the data were processed

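E14.5 ovaries were sequenced as strand-specific paired-end libraries. Per the submitters' processing notes, reads had been trimmed (Trimmomatic 0.39) and mapped to mm10 (STAR 2.5.2), and the authors deposited the count of reads per gene symbol for each library, without normalization. The annotation and strand setting of that counting are not given in the sources used here. A table of CPM from the authors was not used. Counts were analysed in R 4.3.3 with edgeR 4.0.16 (filterByExpr, TMM, quasi-likelihood F test with genotype as the factor, two-sided, Benjamini-Hochberg adjustment), with limma 3.58.1 (voom) and DESeq2 1.42.0 as alternatives. A gene was called at an absolute Log2FC above 0.5 with an FDR below 0.05. The procedure was tested on simulated data. Gene symbols were matched to GENCODE vM21 for 24366 genes and through a RefSeq synonym for 326, and 547 had no match. RPKM used the union of exons. Promoter sequences are from RefSeq.

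The members and lists were chosen with earlier results of these data known. Genes were named if they were members, called pathway genes, macrophage or dendritic cell markers, *Bmpr1a*, *Pou5f1*, or among the 8 largest called changes within 2 Mb of *Pou5f1*. Every other gene named with a value (pathway genes not called, genes with the NF-kB palindrome, and *Oasl2*, *Mael*, *Tdrd9*, *Dppa4*, *Foxl2*, *Emx2* and *Lck*) was chosen after its values were seen. The other lists covered B cells, T cells, endothelium, germ cells, pregranulosa cells, stroma, mesonephros, erythroid and interferon-stimulated genes. The spread between libraries includes animals, pooling and preparation, and the litter of each library is not given in the sources used here. Libraries of one genotype differed by more than sampling noise (mean chi-square per gene of 3.16 to 9.56 between pairs). The alternatives were other tests, scalings, filters, thresholds and windows, the replicate number as a block, and each library left out.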

Additional observations from a re-analysis of the deposited data

How the results depend on the processing

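The number of genes called was 1449 and kept within 1.5 times under every alternative but an FDR below 0.05 with no fold threshold, which gave 4242. With each library left out it was 1288 to 1627. The called pathway genes were 4, and 2 with DESeq2 or scaling to germ cell markers, 11 with no fold threshold and 2 to 5 with a library left out (2 without mutant library 2 or 4 or control library 4). Within 2 Mb of *Pou5f1*, 15 of 112 genes were called, 11 to 15 with a library left out and 31 with no fold threshold. A 1 Mb window held 9 called of 67 tested, and a 5 Mb window 22 of 152 (11 lower and 11 higher). Of all markers 9 were called (7 to 10 with a library left out, 16 with no fold threshold), and of macrophage markers 4 (2 to 5 with a library left out). In the order of levels, 6 pairs differed with any library left out. Except for windows, thresholds and libraries left out, the cause of these moves was not tested. Scaling to pregranulosa and stromal markers moved the median Log2FC of all genes to 0.15 and the share of calls that were higher from 60.1% to 82.3%. Under it *B2m* had a Log2FC of 0.12 and *Tapbp* one of 0.10, both positive but below that median. Over 18 alternatives, the Log2FC ran from -2.04 to -1.60 for *H2-K1*, -1.46 to -1.16 for *H2-D1*, -2.32 to -1.93 for *H2-Ab1* and -0.43 to -0.20 for *Tap1*. Genes under about 0.4 CPM, such as *H2-Aa*, were at the limit of the depth.

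The replicate numbers are shared between the genotypes, but deviations from the group means correlated at 0.198, 0.161, 0.108 and -0.0871 for numbers 1 to 4, so the numbers were not taken to pair the libraries, and only numbers 1 and 2 correlated best with their own number. With the replicate number as a block, 1457 genes were called in all, 4 of the pathway list (0 lower and 4 higher, where 1 and 3 were called without it, as the call of *H2-Oa* was lost at an FDR of 0.0524 by edgeR), 13 near *Pou5f1*, 9 markers and 4 macrophage markers.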
